A study of Mus musculus with 3 samples.

Results

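Transcripts of 4 genes of the glutamate receptor system, Grin2c, Cacng3, Grid1 and Gria3, were followed in nuclei of whole mouse hearts at embryonic day 9.5. They were taken by their symbols from the 27998 genes counted, and each symbol had 1 entry in every library. The hearts were Ncx1-/-, Ncx1+/- or Ncx1+/+, where Ncx1 is an alias of Slc8a1, which encodes an exchanger of sodium and calcium ions in cardiomyocytes. For each genotype 5 flash-frozen hearts were pooled, nuclei were sorted by flow cytometry and 1 droplet library was made, and neither the strain nor the sex of the embryos is given in the sources used here. The genes were chosen from measured values of these same libraries, so all differences between genotypes below are descriptions. With 1 library per genotype no test is possible, and intervals in parentheses are exact 95% intervals that cover counting error only.

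Ionotropic glutamate receptors are ion channels opened by glutamate and are best known from synapses of the brain. Grin2c encodes the GluN2C subunit of NMDA receptors, which need the obligatory GluN1 subunit (Grin1) and glycine or D-serine as co-agonist. Gria3 encodes the AMPA receptor subunit GluA3. Cacng3 encodes a transmembrane AMPA receptor regulatory protein (TARP), which helps to bring AMPA receptors to the membrane and slows their closing. Grid1 encodes the delta receptor GluD1, which is not opened by glutamate and at synapses is bridged by cerebellins (Cbln genes) to neurexins. In the heart of this stage the endocardium lines the muscle and gives rise to the cushion mesenchyme from which the valves form.

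In the mm10 build (GENCODE M21), Grin2c (ENSMUSG00000020734) lies at chr11:115249169-115267243 on the minus strand. Cacng3 (ENSMUSG00000066189) lies at chr7:122670492-122769393 and Grid1 (ENSMUSG00000041078) at chr14:34820108-35583379, both on the plus strand. Gria3 (ENSMUSG00000001986) lies at chrX:41400854-41678601 on the plus strand. Their gene bodies span 18.1, 98.9, 763 and 278 kb, and levels are therefore compared between cells and genotypes, not between genes.

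The Ncx1-/-, Ncx1+/- and Ncx1+/+ libraries held 12525, 12563 and 13805 barcodes with 52985283, 49022310 and 59898298 unique molecular identifiers (UMIs), and 11232, 11266 and 12465 nuclei were kept. Between 40 and 57 barcodes were shared by any pair of libraries. Slc8a1 itself stood at 1033 CPM (UMIs of a gene per 1000000 UMIs of the same nuclei) in Ncx1-/- nuclei, 6540 in Ncx1+/- and 11828 in Ncx1+/+, in the order of the labels. The Ncx1-/- library stood apart in the share of Malat1, a nuclear RNA, which was 8.43% of UMIs there against 4.95% in Ncx1+/- and 4.68% in Ncx1+/+. Cell classes were rebuilt by clustering without the 90 genes of a glutamate list, so that no member shaped the classes. Cardiomyocytes, endothelial nuclei (endocardium and vessels) and cushion mesenchyme numbered 8575, 1501 and 97 nuclei in Ncx1-/-, 8058, 1875 and 271 in Ncx1+/-, and 8680, 2062 and 440 in Ncx1+/+. The endothelial markers summed to 7536 CPM in Ncx1-/- endothelial nuclei, 7113 in Ncx1+/- and 7075 in Ncx1+/+. In mesenchyme nuclei the cushion markers summed to 1330 CPM in Ncx1-/-, 1438 in Ncx1+/- and 1775 in Ncx1+/+. Endothelial markers in the same mesenchyme nuclei had the opposite order, at 3568, 3096 and 2787 CPM. Over all kept nuclei Grin2c had 784 UMIs, Cacng3 233, Grid1 1473 and Gria3 3970.

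The 4 genes were divided among the cell classes in different ways. Endothelial nuclei held 87.1% of Cacng3 UMIs and 54.8% of Grin2c UMIs, whereas cardiomyocytes held 84.4% of Gria3 UMIs. Grid1 was spread, with 30.3% in cushion mesenchyme, 28.0% in endothelial nuclei and 28.0% in cardiomyocytes. A member counts as standing apart in a genotype where its level exceeded, or fell short of, that of each other genotype by 1.5-fold or more and neither counting interval of these ratios included 1, with at least 100 UMIs in the class. By this rule Grin2c and Cacng3 were higher and Grid1 was lower in Ncx1-/- endothelial nuclei, that is 2 and 1 of 4 members, where 7.06% of all 10858 genes measured were higher and 4.09% lower. That is 767 higher and 444 lower genes, against 564 and 538 with trimmed mean of M-values (TMM) factors and 553 and 546 with median-of-ratios factors. In mesenchyme Grid1, the only member with enough UMIs, was lower in Ncx1-/- (all genes: 5.51% higher, 5.31% lower of 5898). None of the 3 members measured in cardiomyocytes as a whole stood apart, where 4.44% of 14129 genes were higher and 3.28% lower in Ncx1-/-.

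**Figure D1:**
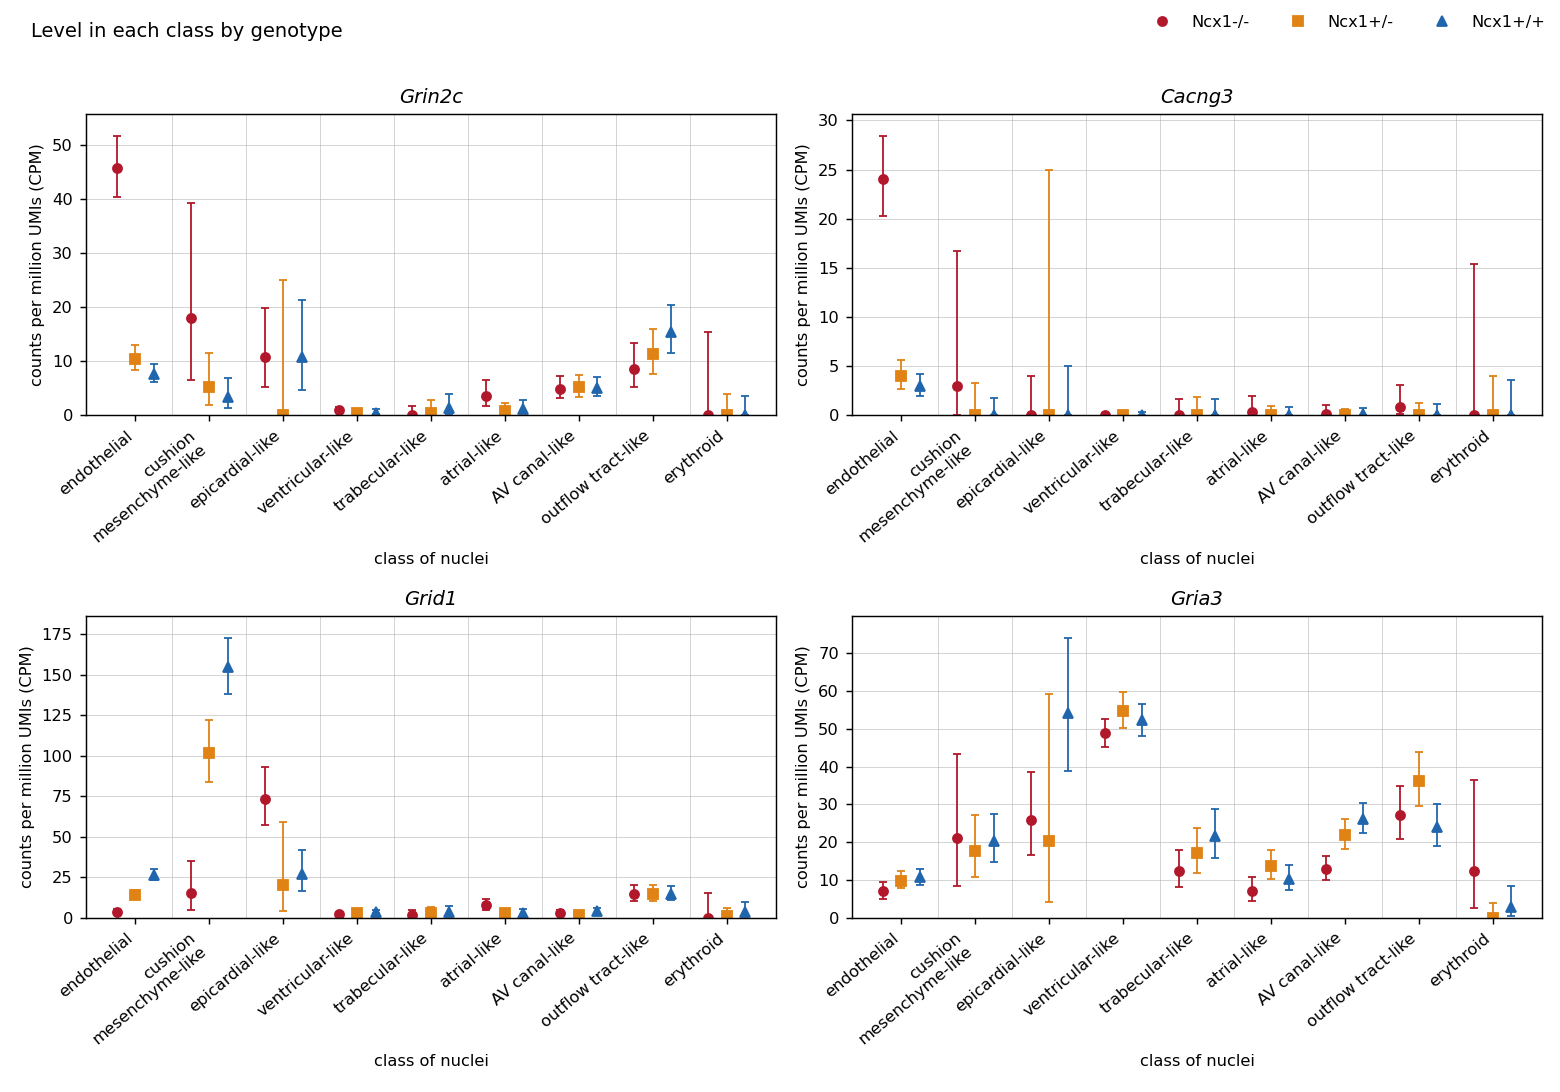
Level of each member (CPM, summed over the nuclei of a class and library, linear axis with its own scale per gene) in the cell classes and cardiomyocyte chambers, for the Ncx1-/-, Ncx1+/- and Ncx1+/+ libraries. Points are libraries, bars are exact 95% counting intervals, and only libraries with at least 20 nuclei in a class are drawn. Grin2c and Cacng3 are highest in Ncx1-/- endothelial nuclei (45.7 and 24.1 CPM), Grid1 in Ncx1+/+ mesenchyme (155 CPM) and, among the cardiomyocyte chambers, Gria3 in the ventricular-like nuclei of all 3 genotypes.

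Grin2c stood at 45.7 CPM (40.4–51.6) in Ncx1-/- endothelial nuclei, 10.5 (8.37–13) in Ncx1+/- and 7.70 (6.11–9.58) in Ncx1+/+, from 266, 84 and 80 UMIs. The Ncx1-/- level was 5.94-fold that of Ncx1+/+ (4.61–7.72) and 4.36-fold that of Ncx1+/- (3.40–5.64). The Ncx1+/- library did not differ from Ncx1+/+ beyond counting error, with a ratio of 1.36 (0.991–1.87). At least 1 Grin2c UMI was found in 14.1% of Ncx1-/- endothelial nuclei, 3.63% of Ncx1+/- and 3.44% of Ncx1+/+, at median depths of 3509, 3999 and 4794 UMIs per nucleus. With every nucleus thinned to 2000 UMIs and shallower nuclei left out, the shares were 8.33% in Ncx1-/-, 1.92% in Ncx1+/- and 1.49% in Ncx1+/+. Erythroid nuclei served as a gauge of free RNA, at median depths of 1656.5, 1769.5 and 1855.5 UMIs in Ncx1-/-, Ncx1+/- and Ncx1+/+. They held no Grin2c UMI, which allows shares of up to 3%, 0.636% and 0.598% in the same libraries. The gauge was not alike in the 3 libraries. Cardiomyocyte markers in erythroid nuclei summed to 11952 CPM in Ncx1-/-, 5903 in Ncx1+/- and 5112 in Ncx1+/+.

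In Ncx1-/- and Ncx1+/- endothelial nuclei, Grin2c had its highest levels in a pair of sub-clusters that came mostly from Ncx1-/-. Sub-cluster 0, with Ankrd37, Ly6h and Vldlr among its leading genes, held 667 Ncx1-/-, 181 Ncx1+/- and 30 Ncx1+/+ nuclei. Sub-cluster 5, led by Slc26a10, Egln3 and genes of dividing cells such as Cep55, held 406, 97 and 15. Ncx1-/- nuclei made up 76.0% of sub-cluster 0 and 78.4% of sub-cluster 5, and such groups may be 1 library rather than a cell type. Grin2c and Cacng3 rank among the leading genes of both and took no part in the clustering. Leading genes were ranked against the other sub-clusters with the libraries pooled, and both genes were chosen from values of these libraries. Their rank is therefore no separate support for the difference between genotypes. In sub-cluster 0 Grin2c stood at 50.1 CPM (41.4–60.01) in Ncx1-/- and 50.8 (34.5–72.1) in Ncx1+/-, from 117 and 31 UMIs, with 1 UMI in Ncx1+/+. In sub-cluster 5 it stood at 56.7 CPM (46.5–68.4) in Ncx1-/- and 59.7 (38.3–88.9) in Ncx1+/-, with no UMI in the 15 Ncx1+/+ nuclei. Inside these sub-clusters the Ncx1-/- and Ncx1+/- libraries had like Grin2c levels and overlapping intervals. The genotypes also differed in how many of their nuclei were placed there. Nuclei were placed by their expression, so those of different libraries in a sub-cluster were chosen to be alike. Whether make-up or level carried the Grin2c difference was not tested.

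A difference in Grin2c was also present outside this pair of sub-clusters. Without them Grin2c stood at 26.0 CPM in Ncx1-/- endothelial nuclei, 4.15 in Ncx1+/- and 7.71 in Ncx1+/+, from 41, 29 and 79 UMIs, and the ratio of Ncx1-/- to Ncx1+/+ was 3.38 (2.26–4.99). In sub-cluster 2, led by Tll1 and Pcdh17, it stood at 37.9 CPM in Ncx1-/-, 4.23 in Ncx1+/- and 12.3 in Ncx1+/+, from 23, 2 and 5 UMIs. In sub-cluster 11, led by Sema4d, Grin2c had 5, 11 and 21 UMIs in the same libraries, and its ratio of Ncx1-/- to Ncx1+/+ of 1.57 (0.464–4.29) lay within counting error. Among sub-clusters with at least 5 UMIs in the library, the order within Ncx1-/- began with sub-cluster 5, sub-cluster 0, sub-cluster 9 (40.1 CPM, 14.7–87.2, from 6 UMIs) and sub-cluster 2 (37.9 CPM, 24–56.8), each overlapping its neighbour. Within Ncx1+/- sub-clusters 5 and 0 were again the highest. Within Ncx1+/+ it began with sub-cluster 9 (15.4 CPM, 10.8–21.5), sub-cluster 2 (12.3, 3.98–28.6) and sub-cluster 11 (12, 7.44–18.4), which overlapped. In sub-cluster 4, led by Ano1 and Dkk2, Grin2c had 1 UMI in 656 nuclei.

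In cardiomyocytes Grin2c did not follow the endothelial difference. It stood at 2.53 CPM in Ncx1-/- cardiomyocytes, 2.51 in Ncx1+/- and 2.91 in Ncx1+/+, a ratio of Ncx1-/- to Ncx1+/+ of 0.869 (0.644–1.17). Among chambers it was highest in outflow tract-like nuclei, at 8.64 CPM in Ncx1-/-, 11.3 in Ncx1+/- and 15.5 in Ncx1+/+. Atrioventricular canal-like nuclei followed, at 4.92, 5.20 and 5.07 CPM in the same libraries. Summed over the libraries, the intervals of the outflow tract-like (12.2 CPM, 9.91–14.8), atrioventricular canal-like (5.06, 4.07–6.22) and atrial-like nuclei (1.68, 0.995–2.65) did not overlap. Ventricular-like (0.659, 0.418–0.989) and trabecular-like nuclei (0.625, 0.170–1.60) had the lowest levels and overlapped. In cushion mesenchyme Grin2c had 6 UMIs in Ncx1-/-, 6 in Ncx1+/- and 7 in Ncx1+/+, or 18.0, 5.31 and 3.32 CPM, too few to be held to the rule.

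**Figure D2:**
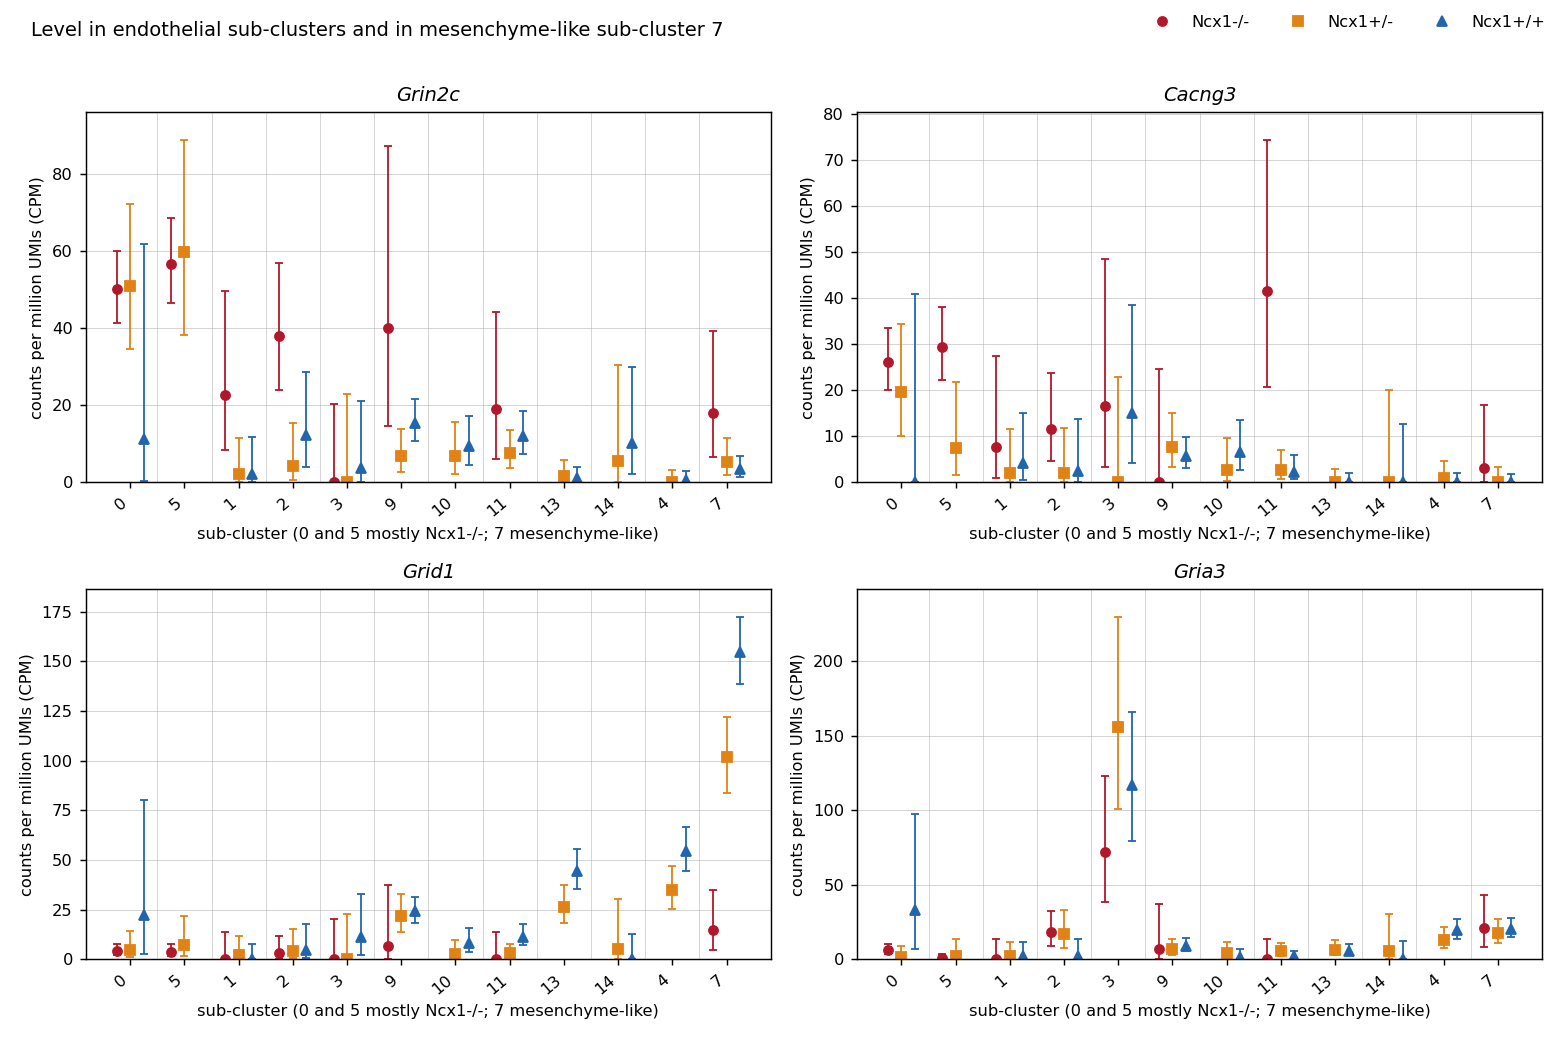
Level of each member (CPM, linear axis with its own scale per gene) in the endothelial sub-clusters and in cushion mesenchyme (sub-cluster 7) for the Ncx1-/-, Ncx1+/- and Ncx1+/+ libraries, with exact 95% counting intervals as bars and libraries with fewer than 20 nuclei in a sub-cluster left out. Grin2c has like levels in Ncx1-/- and Ncx1+/- nuclei of sub-clusters 0 and 5 (50.1 and 50.8 CPM, 56.7 and 59.7 CPM), while Grid1 is highest in sub-cluster 7.

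Cacng3 was found mainly in endothelial nuclei and was higher there in Ncx1-/-. It stood at 24.1 CPM (20.2–28.4) in Ncx1-/- endothelial nuclei, 4.00 (2.73–5.64) in Ncx1+/- and 2.98 (2.03–4.24) in Ncx1+/+, from 140, 32 and 31 UMIs. The Ncx1-/- level was 8.06-fold that of Ncx1+/+ (5.43–12.3) and 6.02-fold that of Ncx1+/- (4.08–9.14). The UMIs lay in few nuclei, 80 of 1501 in Ncx1-/-, 23 of 1875 in Ncx1+/- and 17 of 2062 in Ncx1+/+, or 5.33%, 1.23% and 0.824%. Thinned to 2000 UMIs, the shares were 2.99% in Ncx1-/-, 0.697% in Ncx1+/- and 0.410% in Ncx1+/+. Outside the endothelial class Cacng3 was near the limit of detection. Cardiomyocytes had 8 UMIs in Ncx1-/-, 0 in Ncx1+/- and 1 in Ncx1+/+, and no UMI was found in ventricular-like, trabecular-like, epicardial-like or erythroid nuclei.

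Most Cacng3 UMIs of Ncx1-/- lay in the same pair of sub-clusters as those of Grin2c. The level was 26.1 CPM (19.97–33.5) in Ncx1-/- nuclei of sub-cluster 0 and 19.7 (10.2–34.3) in Ncx1+/-, with no UMI in Ncx1+/+. In sub-cluster 5 it stood at 29.4 CPM (22.2–38.2) in Ncx1-/- and 7.46 (1.54–21.8) in Ncx1+/-, from 56 and 3 UMIs, again with no UMI in Ncx1+/+. The 30 and 15 Ncx1+/+ nuclei of these sub-clusters give upper limits of 41.0 and 76.5 CPM, which are above the Ncx1-/- levels, so a difference was not detectable at this depth. Without both sub-clusters Cacng3 stood at 14.6 CPM in Ncx1-/-, 2.43 in Ncx1+/- and 3.02 in Ncx1+/+, from 23, 17 and 31 UMIs, a ratio of Ncx1-/- to Ncx1+/+ of 4.83 (2.69–8.55). Of those 23 UMIs, 11 came from 4 nuclei of sub-cluster 11, where the level was 41.6 CPM (20.8–74.5) in Ncx1-/-, above that of sub-clusters 0 and 5 with overlapping intervals, 2.74 in Ncx1+/- and 2.29 in Ncx1+/+. No Cacng3 UMI was found in the 567 nuclei of sub-cluster 13, and 1 in the 656 of sub-cluster 4.

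Grin2c and Cacng3 were seldom found in the same nucleus at this depth. Over all endothelial nuclei 350 held a Grin2c UMI, 120 a Cacng3 UMI and 23 both. In Ncx1-/- 17 nuclei held both. Cacng3 was found in 8.06% of Ncx1-/- nuclei with Grin2c and 4.88% of those without it, in 5.88% and 1.05% in Ncx1+/-, and in 2.82% and 0.753% in Ncx1+/+. Deeper nuclei are more likely to show both genes, and depth was not matched in these shares.

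Other measures moved with the Grin2c and Cacng3 differences. A list of 16 genes known to be induced by low oxygen summed to 2852 CPM in Ncx1-/- endothelial nuclei, 1068 in Ncx1+/- and 759 in Ncx1+/+. All 14 of its genes that were measured stood apart as higher in Ncx1-/-, where 7.06% of all 10858 genes measured were higher. In sub-cluster 0 the sum of this list was 2911 CPM in Ncx1-/-, 2378 in Ncx1+/- and 1421 in Ncx1+/+, and in sub-cluster 5 it was 2770, 1986 and 1037. The low-oxygen genes were not left out of the clustering, and Ankrd37, Egln3 and Pdk1 are among the leading genes of both sub-clusters. A high sum there was therefore not independent of how the nuclei were placed. In sub-cluster 3, led by Ano3 and Gja5, the sum was 4112 CPM in Ncx1-/-, 1132 in Ncx1+/- and 811 in Ncx1+/+. Grin2c had 1 UMI in the 165 nuclei of that sub-cluster. In cardiomyocytes the sum was 3859 CPM in Ncx1-/-, 2420 in Ncx1+/- and 2231 in Ncx1+/+, where Grin2c had like levels. Cardiomyocyte markers in endothelial nuclei summed to 2577 CPM in Ncx1-/-, 1897 in Ncx1+/- and 1702 in Ncx1+/+, with none of the 12 markers at 0 in any library. In cardiomyocytes these markers summed to 22464, 21374 and 20882 CPM in the same libraries. The endocardial markers summed to 3962 CPM in Ncx1-/- endothelial nuclei, 6578 in Ncx1+/- and 7320 in Ncx1+/+. The part of the low-oxygen genes, of cardiomyocyte RNA, of Malat1 and of the changed make-up of the endothelial class in these differences was not tested.

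**Figure D3:**
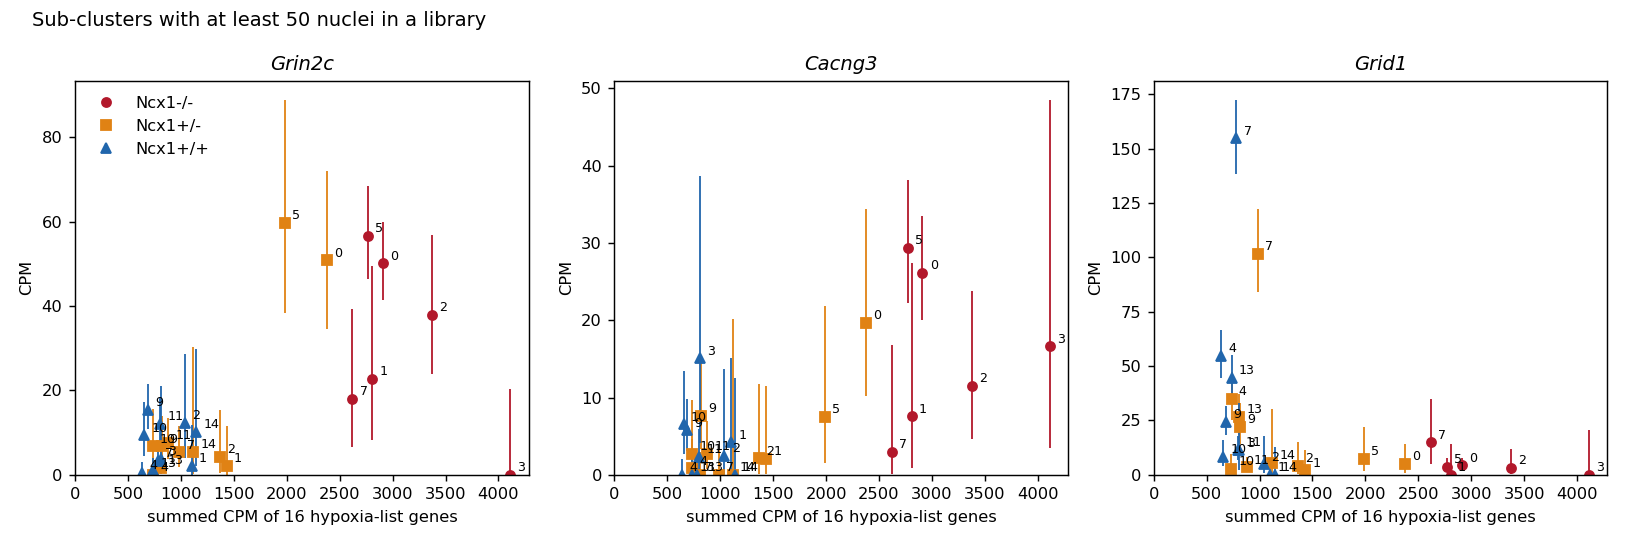
Level of Grin2c, Cacng3 and Grid1 (CPM, vertical axis, with exact 95% counting intervals) against the summed CPM of the 16 low-oxygen genes (horizontal axis), 1 point per endothelial or mesenchyme sub-cluster and library with at least 50 nuclei, numbered by sub-cluster, for Ncx1-/-, Ncx1+/- and Ncx1+/+. Points of a library share its depth and preparation, and the low-oxygen genes were not left out of the clustering that made the sub-clusters. Ncx1-/- sub-clusters 0 and 5 lie at sums of 2911 and 2770 CPM with Grin2c at 50.1 and 56.7 CPM, and Ncx1-/- sub-cluster 3 lies at 4112 CPM with no Grin2c UMI.

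In Ncx1+/- and Ncx1+/+ Grid1 was highest in cushion mesenchyme, and in Ncx1-/- in the epicardial-like cluster. It was lower in Ncx1-/- mesenchyme and endothelial nuclei than in those of the other genotypes. In mesenchyme it stood at 15 CPM (4.88–35.0) in Ncx1-/-, 102 (84.0–122) in Ncx1+/- and 155 (138–172) in Ncx1+/+, from 5, 115 and 326 UMIs. The Ncx1-/- level was 0.0971 of that in Ncx1+/+ (0.0313–0.229), or 10.3-fold lower, and 0.148 of that in Ncx1+/- (0.0470–0.355). With the glutamate list kept in the clustering, which left 27 Ncx1-/- nuclei, the ratio of Ncx1-/- to Ncx1+/+ was 0.226 (0.0464–0.665). At Leiden resolution 2, which left 12 Ncx1-/- nuclei, it was 0.110 (0.00278–0.618). The Ncx1+/- library lay between, at 0.658 of Ncx1+/+ (0.527–0.816). A Grid1 UMI was found in 5.15% of 97 Ncx1-/- mesenchyme nuclei, 17.7% of 271 Ncx1+/- and 25% of 440 Ncx1+/+, at median depths of 3074, 3898 and 4454 UMIs. Thinned to 2000 UMIs, the shares were 3.33% in Ncx1-/-, 13.5% in Ncx1+/- and 16.8% in Ncx1+/+. The shares in erythroid nuclei were 0%, 0.212% and 0.797% in the same libraries, where 0 of 100 allows up to 3%. With 5 UMIs, the Ncx1-/- value rests on few molecules, and the mesenchyme sub-cluster was itself smaller in that library. Ncx1-/- mesenchyme nuclei also had the lowest sum of cushion markers and the highest of endothelial markers. The part of this make-up in the Grid1 difference was not tested.

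In endothelial nuclei Grid1 stood at 3.61 CPM (2.23–5.52) in Ncx1-/-, 14.4 (11.9–17.2) in Ncx1+/- and 26.6 (23.5–29.9) in Ncx1+/+, from 21, 115 and 276 UMIs. Ncx1-/- was 7.36-fold lower than Ncx1+/+ (4.72–12.1). Ncx1+/- was also lower than Ncx1+/+, with a ratio of 0.541 (0.431–0.674). Without sub-clusters 0 and 5 the levels were 2.54 CPM in Ncx1-/-, 15.6 in Ncx1+/- and 26.7 in Ncx1+/+. Summed over the libraries, Grid1 ran from cushion mesenchyme (125 CPM, 114–137) to sub-cluster 4 (46.8, 39.5–55.1), sub-cluster 13 (36.8, 30.4–44.2), led by Fam155a and Adamts19, and sub-cluster 9 (22.8, 18.1–28.5), led by Nrg1 and Slc24a4. Sub-clusters 4 and 13 overlapped and the other steps did not. These 4 groups of nuclei had the same order within Ncx1+/- and within Ncx1+/+.

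The sub-clusters that carried most endothelial Grid1 hardly occurred in Ncx1-/-. Sub-cluster 4 held 9 Ncx1-/-, 268 Ncx1+/- and 379 Ncx1+/+ nuclei and sub-cluster 13 held 8, 235 and 324. In sub-cluster 4 Grid1 had 1 UMI in Ncx1-/-, 42 in Ncx1+/- (34.9 CPM, 25.1–47.1) and 102 in Ncx1+/+ (54.8 CPM, 44.6–66.5). In sub-cluster 13 it had 0, 33 and 83 UMIs in the same libraries, or 26.6 CPM (18.3–37.4) in Ncx1+/- and 44.6 (35.5–55.3) in Ncx1+/+. In sub-cluster 9, with 21, 192 and 368 nuclei, it stood at 6.68, 22.0 and 24.3 CPM, where the Ncx1-/- value is from 1 UMI. Too few Ncx1-/- nuclei lay in sub-clusters 4, 13 and 9 to compare levels within them. Cushion markers in endothelial nuclei, which summed to 369 CPM in Ncx1-/-, 694 in Ncx1+/- and 849 in Ncx1+/+, had the same order as Grid1. The part of the number of nuclei per sub-cluster in the endothelial Grid1 difference was not tested.

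In cardiomyocytes as a whole Grid1 did not stand apart in Ncx1-/-. It stood at 3.82 CPM in Ncx1-/-, 4.09 in Ncx1+/- and 4.56 in Ncx1+/+, a ratio of Ncx1-/- to Ncx1+/+ of 0.837. Outflow tract-like nuclei, with the highest level of the chambers, stood at 14.7, 14.8 and 14.5 CPM. In ventricular-like nuclei Grid1 stood at 2.33 CPM in Ncx1-/-, 3.18 in Ncx1+/- and 3.73 in Ncx1+/+, a ratio of Ncx1-/- to Ncx1+/+ of 0.624 (0.383–1.01). All chambers except the outflow tract-like nuclei lay between 2.81 and 4.2 CPM summed over the libraries, with overlapping intervals. In atrial-like nuclei Grid1 stood at 7.77 CPM in Ncx1-/-, 2.89 in Ncx1+/- and 2.94 in Ncx1+/+, from 22, 11 and 12 UMIs, a ratio of Ncx1-/- to Ncx1+/+ of 2.64 (1.25–5.86). With at least 30 UMIs required, 1.65% of genes were higher in Ncx1-/- atrial-like nuclei. Of the chamber lists, cluster 3 scored best for the atrial markers (0.531, against 0.897 in the atrial-like cluster 7). Cluster 3 was given no chamber, so it is not among these nuclei. It held 970 Ncx1-/-, 177 Ncx1+/- and 4 Ncx1+/+ nuclei, with 5 Grid1 UMIs in all (1.12 CPM, 0.364–2.62). Its part in the atrial-like difference was not tested. In the epicardial-like cluster Grid1 stood at 73.6 CPM (57.1–93.3) in Ncx1-/-, 20.3 (4.19–59.3) in Ncx1+/- and 27.2 (16.6–41.9) in Ncx1+/+. The ratio of Ncx1-/- to Ncx1+/+ was 2.71 (1.63–4.71), where 1.01% of genes were higher at the minimum of 30 UMIs. That cluster held 267 Ncx1-/-, 41 Ncx1+/- and 217 Ncx1+/+ nuclei. Its epicardial markers summed to 978 CPM in Ncx1-/-, 250 in Ncx1+/- and 1170 in Ncx1+/+ and its sinus venosus markers to 1704, 1922 and 1721 CPM. Its cardiomyocyte markers summed to 9649 CPM in Ncx1-/-, 15757 in Ncx1+/- and 8956 in Ncx1+/+ and its atrial markers to 3478, 3073 and 3355 CPM. The part of this make-up in the Grid1 difference was not tested.

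Among the larger classes and chambers, Gria3 was highest in ventricular-like cardiomyocytes, and its levels there overlapped in the 3 genotypes. It stood at 48.8 CPM (45.3–52.6) in Ncx1-/- ventricular-like nuclei, 54.7 (50.1–59.7) in Ncx1+/- and 52.3 (48.2–56.7) in Ncx1+/+, from 693, 516 and 589 UMIs. The ratio of Ncx1-/- to Ncx1+/+ was 0.934 (0.836–1.04). Summed over the libraries, the chambers followed in the order ventricular-like (51.5 CPM, 49.2–54.0), outflow tract-like (29.1, 25.5–33.0), atrioventricular canal-like (20.9, 18.8–23.1), trabecular-like (17.0, 14–20.5) and atrial-like (10.6, 8.77–12.8). The atrioventricular canal-like and trabecular-like intervals overlapped and the other steps did not. Within Ncx1+/+ the atrioventricular canal-like level was above the outflow tract-like one, at 26.2 and 24.1 CPM. A Gria3 UMI was found in 8.58% of Ncx1-/- cardiomyocytes, 8.72% of Ncx1+/- and 9.21% of Ncx1+/+, at median depths of 3598, 3399 and 3753 UMIs, and in 4.89%, 5.63% and 5.31% once thinned to 2000 UMIs. In erythroid nuclei it was found in 2% of Ncx1-/-, 0% of Ncx1+/- and 0.598% of Ncx1+/+, from 2, 0 and 3 nuclei, where 0 of 472 allows up to 0.636%.

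The ventricular-like class was not uniform in Gria3. Cluster 0 stood at 71.3 CPM in Ncx1-/-, 79.1 in Ncx1+/- and 63.9 in Ncx1+/+, and cluster 1 at 58.8, 78.5 and 70.7. Cluster 2, led by Nell1, Tenm4 and Hand1, stood at 17.9, 20.7 and 24.2 CPM in the same libraries. The difference between clusters 0 and 2 was thus larger than any difference between genotypes within them. In cluster 10, which was given no chamber, Gria3 stood at 62.4 CPM in Ncx1-/-, 57.4 in Ncx1+/- and 44.1 in Ncx1+/+.

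Atrioventricular canal-like nuclei were the chamber where Gria3 stood apart in Ncx1-/-. It stood at 12.9 CPM (9.98–16.3) in Ncx1-/-, 21.9 (18.2–26.1) in Ncx1+/- and 26.2 (22.5–30.3) in Ncx1+/+, from 68, 122 and 181 UMIs. The Ncx1-/- level was 0.490 of that in Ncx1+/+ (0.365–0.651) and 0.588 of that in Ncx1+/- (0.431–0.798), where 3.45% of 10734 genes were lower by the rule. With at least 1000 genes required per nucleus the ratio of Ncx1-/- to Ncx1+/+ was 0.731 (0.544–0.981), which no longer reaches 1.5-fold. This class joins cluster 11, which held 1379 Ncx1-/-, 942 Ncx1+/- and 761 Ncx1+/+ nuclei, and cluster 8, which held 111, 676 and 994. In cluster 11 Gria3 stood at 13.2 CPM in Ncx1-/-, 15.3 in Ncx1+/- and 21.8 in Ncx1+/+, a ratio of Ncx1-/- to Ncx1+/+ of 0.602 (0.413–0.879). In cluster 8 it stood at 10.0, 28.7 and 28.8 CPM, from 5, 78 and 125 UMIs. Most Ncx1-/- nuclei of the class lay in cluster 11 and most Ncx1+/+ nuclei in cluster 8, which had the higher Gria3 level in Ncx1+/+. The part of this make-up in the Gria3 difference was not tested.

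Gria3 is X-linked, and the pooled hearts differed in sex-linked transcripts. In atrioventricular canal-like nuclei Xist, expressed from the inactive X, stood at 1169 CPM in Ncx1-/-, 817 in Ncx1+/- and 695 in Ncx1+/+, and the Y-linked Ddx3y at 25, 41.4 and 43.7. The order of Xist is opposite to that of Gria3, and its part in the Gria3 difference was not tested.

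Outside the muscle Gria3 had high values in small groups of nuclei. In endothelial sub-cluster 3 it stood at 71.9 CPM (38.3–123) in Ncx1-/-, 156 (101–230) in Ncx1+/- and 117 (79.4–166) in Ncx1+/+, from 13, 25 and 31 UMIs, with overlapping intervals. Over all endothelial nuclei it stood at 7.05 CPM in Ncx1-/-, 9.87 in Ncx1+/- and 10.7 in Ncx1+/+, and the ratio of Ncx1-/- to Ncx1+/+ of 0.660 (0.449–0.952) turned to 1.51 (0.934–2.34) without sub-clusters 0 and 5, which have little Gria3. In cushion mesenchyme it stood at 21, 17.7 and 20.4 CPM, with no difference beyond counting error. In megakaryocyte-like nuclei it had 3 UMIs in the 2 Ncx1-/- nuclei, 10 in the 13 Ncx1+/- nuclei and 46 in the 29 Ncx1+/+ nuclei, and these 59 UMIs lay in 7 nuclei. Erythroid nuclei had 3, 0 and 3 UMIs.

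The other genes of the receptor system gave the setting for the members. Of the 90 genes of the glutamate list, 41 were measured in endothelial nuclei, and 5 were higher and 7 lower in Ncx1-/-, where 7.06% of all genes measured were higher and 4.09% lower, with a median log2 ratio of Ncx1-/- to Ncx1+/+ of -0.15, against 0.10 for all genes measured. Among NMDA receptor subunits, Grin2a stood at 21.7 CPM in Ncx1-/-, 6.99 in Ncx1+/- and 3.08 in Ncx1+/+, a ratio of Ncx1-/- to Ncx1+/+ of 7.03 (4.74–10.7), and so lay on the same side as Grin2c. Grin3a lay on the other side, at 8.25, 20.2 and 21.6 CPM. The obligatory subunit Grin1 was sparse, with 17 UMIs in Ncx1-/- endothelial nuclei, 8 in Ncx1+/- and 11 in Ncx1+/+, or 2.92, 0.999 and 1.06 CPM, and it had none in mesenchyme.

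AMPA receptor subunits, the partners of TARPs such as Cacng3, lay on both sides in endothelial nuclei. Gria4 stood at 5.16 CPM in Ncx1-/- endothelial nuclei, 15.5 in Ncx1+/- and 18.7 in Ncx1+/+, a ratio of Ncx1-/- to Ncx1+/+ of 0.276 (0.181–0.407). Gria2 had 61, 18 and 14 UMIs, or 10.5 CPM in Ncx1-/-, 2.25 in Ncx1+/- and 1.35 in Ncx1+/+, under the minimum of 100 UMIs. Syndig1, which encodes an AMPA receptor-associated membrane protein, stood at 1.20 CPM in Ncx1-/-, 16.9 in Ncx1+/- and 27.5 in Ncx1+/+. Cacng3 was the only 1 of the 8 genes of the TARP and CACNG list with enough UMIs to be measured in this class.

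**Figure D4:**
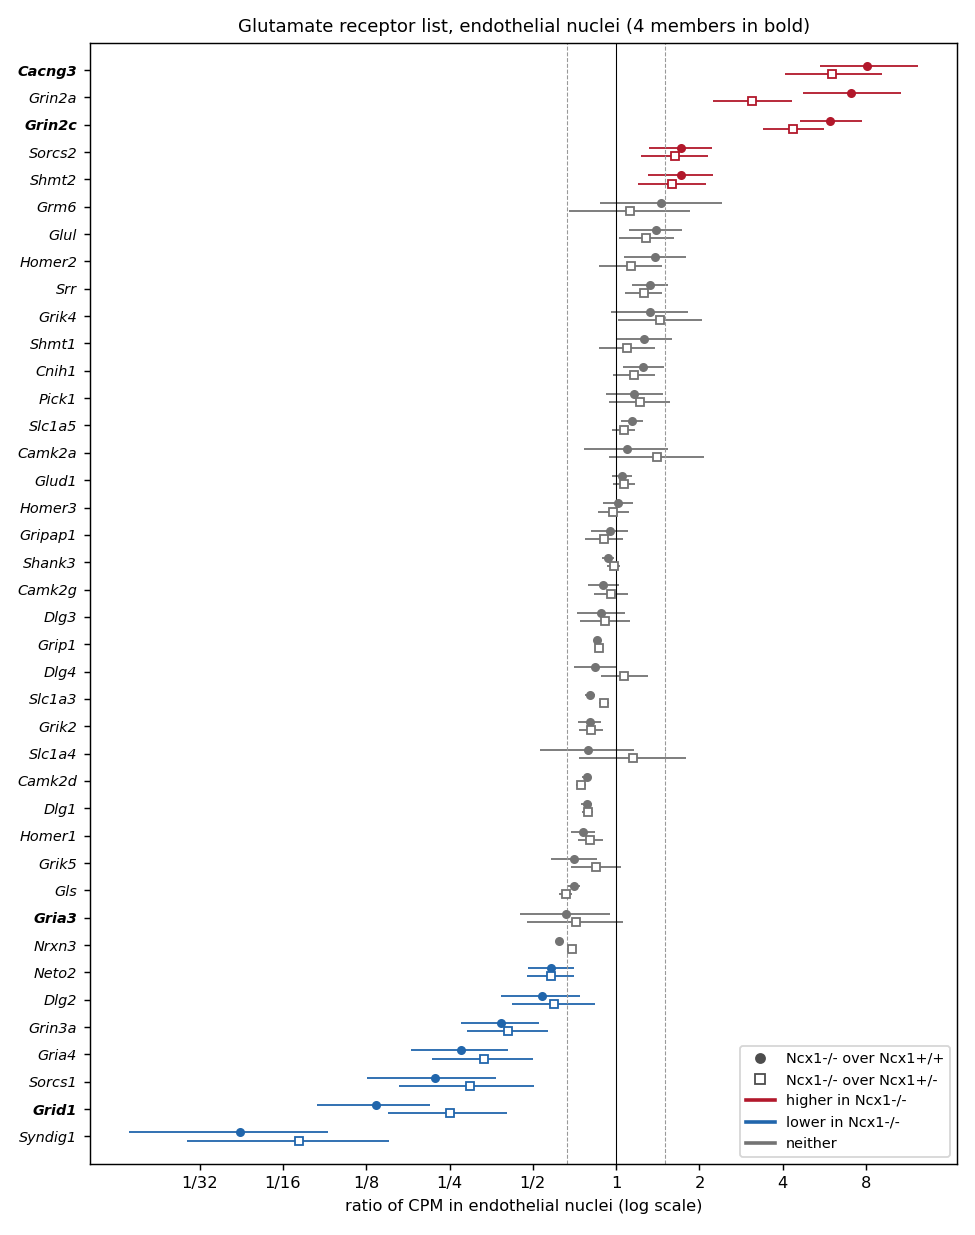
Ratio of CPM in endothelial nuclei (horizontal log axis) for measured genes of the glutamate list, 1 gene per line, as Ncx1-/- over Ncx1+/+ (filled circles) and Ncx1-/- over Ncx1+/- (open squares), with exact 95% counting intervals as bars. The 4 members are in bold, colours mark genes that stood apart as higher or lower in Ncx1-/-, and dashed lines mark 1.5-fold: Cacng3 (8.06), Grin2a (7.03) and Grin2c (5.94) lie at the top, Grid1 (0.136) and Syndig1 at the bottom.

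For the delta receptor Grid1, the neurexin gene Nrxn3 was present in endothelial nuclei and the cerebellins were at or near 0. Nrxn3 stood at 1610 CPM in Ncx1-/- endothelial nuclei, 2329 in Ncx1+/- and 2594 in Ncx1+/+. Cbln1 had 1 UMI in Ncx1-/- and none in the other libraries, Cbln3 had 5, 1 and 2 UMIs in Ncx1-/-, Ncx1+/- and Ncx1+/+, and Cbln2 and Cbln4 had none. In mesenchyme, Nrxn3 stood at 2454 CPM in Ncx1-/-, 2254 in Ncx1+/- and 2133 in Ncx1+/+. Of 24 list genes measured there, 1 (Grid1) was lower in Ncx1-/- and none was higher. Of all 5898 genes measured, 5.31% were lower and 5.51% higher, so this count is near the share of all genes.

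In cardiomyocytes 61 list genes were measured, and 4 were higher and 11 lower in Ncx1-/-, where 4.44% of all genes measured were higher and 3.28% lower, with a median log2 ratio of -0.21 against -0.03 for all genes measured. Grin2b stood at 15.7 CPM in Ncx1-/-, 5.66 in Ncx1+/- and 3.31 in Ncx1+/+, a ratio of Ncx1-/- to Ncx1+/+ of 4.76 (3.89–5.87), while Grin2c did not stand apart in the same nuclei. Gria1 stood at 4.11 CPM in Ncx1-/-, 8.75 in Ncx1+/- and 9.24 in Ncx1+/+, while Gria3 and Grid1 did not stand apart.

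The genes whose levels followed each member most closely were ranked over 74 points, each a cluster or sub-cluster of at least 50 nuclei in 1 library. Pearson correlations of log2(CPM + 1) were highest for Grin2c with Eps8 (0.672), Slc9a3r1 (0.668) and Smarca2 (0.662), and for Cacng3 with Acvrl1 (0.820), Mrc1 (0.819) and Sox17 (0.796). For Grid1, Plce1 (0.714) and Mast2 (0.699) were among the highest, and for Gria3 they were highest with Cacna2d1 (0.761), Lypd6 (0.755) and Ror1 (0.747). The correlation between Grin2c and Cacng3 was 0.613. The points share libraries, depth and nuclei of related types, and only 4 of the 12 genes ranked in this way were named again with at least 100 nuclei per point, and 4 with Spearman correlation.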

How the data were processed

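Nuclei of whole embryonic hearts were profiled with the 10x Genomics kit version 3.1, in 1 library of 5 pooled hearts for each of 3 Ncx1 genotypes, per the labels' protocols. The authors deposited UMI counts per gene and barcode, whole numbers without normalization. The submitters' processing notes name Cell Ranger 6.1.0 and build mm10, and the file headers name version 9.0.0. Neither states how intronic reads were treated.

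Barcodes with fewer than 500 genes or over 5% mitochondrial UMIs were left out, and the 8% with the highest Scrublet score per library were removed as doublets, since its automatic threshold marked 0% of Ncx1-/- nuclei, against 11.0% in Ncx1+/- and 10.3% in Ncx1+/+. Counts were clustered in scanpy 1.11.5 (2000 variable genes without the 90 glutamate list genes, 30 components, 15 neighbours, Leiden resolution 1, libraries not corrected for each other). Marker lists named the clusters, endothelial clusters were clustered again into 15 sub-clusters, and the names may differ from those of the study. Counts were summed per class and library and divided by the class total to CPM. Ratios have exact conditional binomial intervals and levels exact Poisson intervals. Folds against 0 were not given. The call rule was run on simulated counts with known changes. These had counting error only and a profile shared by all libraries, so the run does not cover differences between libraries. edgeR 4.0.16 and DESeq2 1.42.0 supplied only alternative scaling factors. Named genes are the 4 members, list genes that stood apart or belong to the members' own receptors, and the 3 genes most like each member among those with at least 300 counts. The members and lists were chosen with earlier results of these data known. Of the gene identifiers, 98.7% matched GENCODE M21. A few genes and the promoter sequences are not reported here.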

Additional observations from a re-analysis of the deposited data

Results flagged for a closer look

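The Ncx1-/- over Ncx1+/+ ratio of Grid1 had opposite directions in different cell classes. It was 0.136 in endothelial nuclei and 0.0971 in cushion mesenchyme, but 2.71 in the epicardial-like cluster and 2.64 in atrial-like cardiomyocytes. In each of these classes the counting interval of the ratio excluded 1. With 1 library per genotype the difference between the classes was not tested. The mesenchyme value rests on 5 UMIs in Ncx1-/- and the atrial-like value on 22 UMIs in Ncx1-/- and 12 in Ncx1+/+. The atrial-like nuclei leave out cluster 3, which had 970 Ncx1-/- nuclei and 5 Grid1 UMIs in all. Of the chamber lists, its best score was for the atrial markers (0.531), below that of the atrial-like cluster 7 (0.897).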

How the results depend on the processing

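Of the alternative values computed for the main results, 111 stayed within the counting interval or, for counts of genes, within 1.5-fold, 12 moved further and 1 turned round. Without the sub-clusters that came over 70% from 1 library (0 and 5), the ratio of Ncx1-/- to Ncx1+/+ in endothelial nuclei was 3.38 for Grin2c and 4.83 for Cacng3, and turned to 1.51 for Gria3. For Gria3 in ventricular-like nuclei, Leiden resolution 2 gave a ratio of 1.11, against 0.934, whose interval included 1. For Grid1 in mesenchyme the ratio was 0.226 (0.0464–0.665) with the glutamate list kept in the clustering and 0.110 (0.00278–0.618) at Leiden resolution 2, against 0.0971. For Gria3 in atrioventricular canal-like nuclei it was 0.731 with at least 1000 genes per nucleus. Of 41 glutamate list genes measured in endothelial nuclei, 5 were higher in Ncx1-/-. This became 8 of 55 with a minimum of 30 UMIs, 8 of 78 with no minimum and 3 of 41 at 2-fold. Without sub-clusters 0 and 5 it was 3 of 39. Among the 61 list genes measured in cardiomyocytes, 2-fold left 1 of 4 higher and 5 of 11 lower genes. The shares of all genes called at these settings were not computed, so these counts are not set against a background. Of the 12 genes most like the members, 4 were named again with at least 100 nuclei per point and 4 with Spearman correlation. The cause of these changes was not tested. No paired analysis was possible because each genotype has 1 library, and for the same reason no replicate could be left out. Depth limits Grid1 in Ncx1-/- mesenchyme (5 UMIs) and both Grin2c and Cacng3 in Ncx1+/+ nuclei of sub-clusters 0 and 5.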
